A study of Homo sapiens with 18 samples.

Results

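The genes of homologous recombination and of the Fanconi anemia pathway were followed here as a set of 35, named by symbol, among the 60622 genes counted in every library. The set was chosen by function, with earlier results of these data known. It holds BRCA1, BRCA2 and their partners, proteins that help strand exchange, the Fanconi anemia core complex, FANCI and FANCD2. It also holds the nucleases of end resection and enzymes that take apart joined DNA molecules. All 35 had a count row, and all 35 passed the filter on low counts in each comparison.

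RNA was sequenced from H1299, a non-small cell lung cancer line that lacks endogenous p53 protein. In the induced cells doxycycline switches on a wild-type p53 joined to FKBP12F36V and an HA tag. AceTAG compounds have one end for this tag and another for an acetyltransferase, to draw the enzyme to the tagged protein: AceTAGp300CBP-1 (the p300/CBP compound) is directed at p300 and CBP, and AceTAGPCAFGCN5-4 (the PCAF/GCN5 compound) at PCAF and GCN5. There were 6 groups of 3 libraries, all taken at 24 h: induced cells with the p300/CBP compound, with the PCAF/GCN5 compound or with DMSO, and non-induced cells with the same 3 additions. The labels give no dose, so the compounds are compared as they were applied. Only the titles of induced samples name the tagged p53. Whether non-induced cells carry the construct, or were given doxycycline, is not stated. Induction below names the difference between these groups, in which tagged p53, doxycycline and any difference of cells cannot be told apart. Since nothing says that the replicates are separate cultures, the p-values measure only the spread between these libraries.

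Homologous recombination repairs double-strand breaks and broken replication forks by copying the sister chromatid, and is used in S and G2 phase. The broken end is resected by MRE11, RAD50 and NBN with RBBP8 and then by EXO1; BRCA1 with BARD1, PALB2 and BRCA2 prepare the resected end for strand exchange; and BLM with RMI1 and RMI2, or MUS81 with EME1, separate the joined molecules. In the Fanconi anemia pathway, which repairs crosslinks between DNA strands, a core complex and the ubiquitin-conjugating enzyme UBE2T attach ubiquitin to FANCI and FANCD2. Many of these genes are transcribed in the cell cycle from promoters bound by E2F, and p53 is known to repress cell cycle genes through p21, the product of CDKN1A, and the DREAM complex.

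Total counts ran from 9.1 M (the third non-induced DMSO library) to 29.2 M. CDKN1A, the p21 gene, was at 2332.5 to 2451.5 CPM (counts scaled to a library total of 1000000) in induced cells with the p300/CBP compound, 805.7 to 859.0 CPM with the PCAF/GCN5 compound and 332.4 to 380.4 CPM with DMSO, against 85.7 to 109.3 CPM over the non-induced libraries. The third induced DMSO library stood apart: mitochondrial genes took 0.714% of its counts, against 1.32% to 2.45% in the other 17 libraries, and its levels of the 35 genes differed from those of its partners by a median of 0.193 (absolute log2 difference of CPM), the widest of the 18 libraries. For comparisons that hold it, the count of the 35 genes that passed is given with and without it. Changes of single genes and medians are given with it only, apart from the change of MUS81. VIM and the keratins KRT8 and KRT18 were expressed, but the epithelial markers KRT19, EPCAM and CDH1 were at 0.178 CPM or less and the lung markers NKX2-1 and SFTPC at 0.602 CPM or less in every library. The leukocyte markers summed to at most 4.79 CPM (9 genes, PTPRC at 0 in every library) and the endothelial and fibroblast markers to at most 3.28 CPM (10 genes).

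The 300 bases around the start of some of these genes are shown first, because E2F elements were searched in the promoters of the set. The windows, from RefSeq (GRCh38.p14), run from 250 bases before to 50 bases after the start and are printed 5′ to 3′ on the strand of the gene, with capitals for a match to the E2F letters TTTCCCGC, TTTCGCGC, TTTGCCGC or TTTGGCGC on either strand. XRCC2, EXO1 and FANCD2 are the genes with a match that were lowered most by induction, BRCA2 was lowered as much with no match, and FANCL changed little. They were picked with the matches and changes in view.
XRCC2 (chr7:152676092-152676391, minus strand): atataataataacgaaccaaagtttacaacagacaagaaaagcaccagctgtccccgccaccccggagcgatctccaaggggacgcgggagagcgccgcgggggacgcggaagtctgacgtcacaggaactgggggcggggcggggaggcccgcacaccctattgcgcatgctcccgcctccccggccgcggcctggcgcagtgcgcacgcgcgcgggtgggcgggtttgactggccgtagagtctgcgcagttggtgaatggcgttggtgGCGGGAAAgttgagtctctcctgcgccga
EXO1 (chr1:241847954-241848253, plus strand): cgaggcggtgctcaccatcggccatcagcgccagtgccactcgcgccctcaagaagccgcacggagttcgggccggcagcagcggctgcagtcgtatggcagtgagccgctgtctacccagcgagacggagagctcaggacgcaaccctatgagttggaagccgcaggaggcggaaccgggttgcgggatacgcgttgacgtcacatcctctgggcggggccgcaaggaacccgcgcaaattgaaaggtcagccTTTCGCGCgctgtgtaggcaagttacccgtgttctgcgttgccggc
FANCD2 (chr3:10026187-10026486, plus strand): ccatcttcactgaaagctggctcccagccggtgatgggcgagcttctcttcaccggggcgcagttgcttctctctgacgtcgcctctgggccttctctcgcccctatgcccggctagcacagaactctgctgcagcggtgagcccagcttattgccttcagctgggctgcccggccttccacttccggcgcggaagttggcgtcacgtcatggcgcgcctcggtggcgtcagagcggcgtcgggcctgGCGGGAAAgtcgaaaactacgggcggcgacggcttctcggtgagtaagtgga
BRCA2 (chr13:32315258-32315557, plus strand): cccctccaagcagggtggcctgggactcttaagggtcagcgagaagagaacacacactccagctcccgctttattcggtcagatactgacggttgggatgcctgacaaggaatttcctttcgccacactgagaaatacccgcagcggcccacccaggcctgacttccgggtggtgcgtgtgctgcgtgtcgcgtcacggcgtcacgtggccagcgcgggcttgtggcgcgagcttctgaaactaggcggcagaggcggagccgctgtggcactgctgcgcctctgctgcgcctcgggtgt
FANCL (chr2:58241276-58241575, minus strand): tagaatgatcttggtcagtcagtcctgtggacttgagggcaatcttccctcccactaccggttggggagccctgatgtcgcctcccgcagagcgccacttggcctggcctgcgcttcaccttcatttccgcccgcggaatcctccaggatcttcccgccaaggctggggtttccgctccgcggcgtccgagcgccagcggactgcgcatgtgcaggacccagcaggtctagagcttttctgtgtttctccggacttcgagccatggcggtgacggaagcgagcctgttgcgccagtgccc

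Of the 35 genes, 31 had at least 1 window. An E2F match lay in 6 of them (19.4%), against 3.99% of the 27305 genes in the table: XRCC2, EXO1, FANCA, FANCD2, RMI1 and FANCC. The first base of the match was at position 22 in XRCC2, 5 in EXO1 and -2 in FANCD2, counted from the start as base 1 with no base 0. The CHR letters TTTGAA or TTCGAA, bound by the DREAM complex in cell cycle promoters and searched on both strands, were in the windows of 4 of the 31 genes (12.9%), namely BRIP1, FANCC, UBE2T and POLQ, against 19.5% of all genes. The NF-Y letters CCAAT, on either strand, were in 15 (48.4%), against 39.7% of all genes. Only FANCC had windows with both E2F and CHR letters. These are matches of letters in a window, not sites shown to be bound.

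Most of the set was lower in induced than in non-induced cells. In DMSO, 28 of the 35 genes fell and none rose (edgeR quasi-likelihood test, adjusted p below 0.05), where 7.77% of the 15055 genes tested fell and 6.01% rose. The median log2 fold change of the 35 genes was -0.84, against 0.01 for all genes tested. The count was 25 to 30 with any 1 library left out, where 3.53% to 17.2% of all genes tested fell. Without the third induced DMSO library it was 30, but 17.2% of all genes tested then fell and 15.3% rose, so the count grew together with the background. The falls covered each step of the pathway, from resection to the separation of joined molecules, but 7 genes did not pass. The heat map of the 35 genes by library shows this division, with blue rows for most genes in every induced library.

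**Figure D1:**
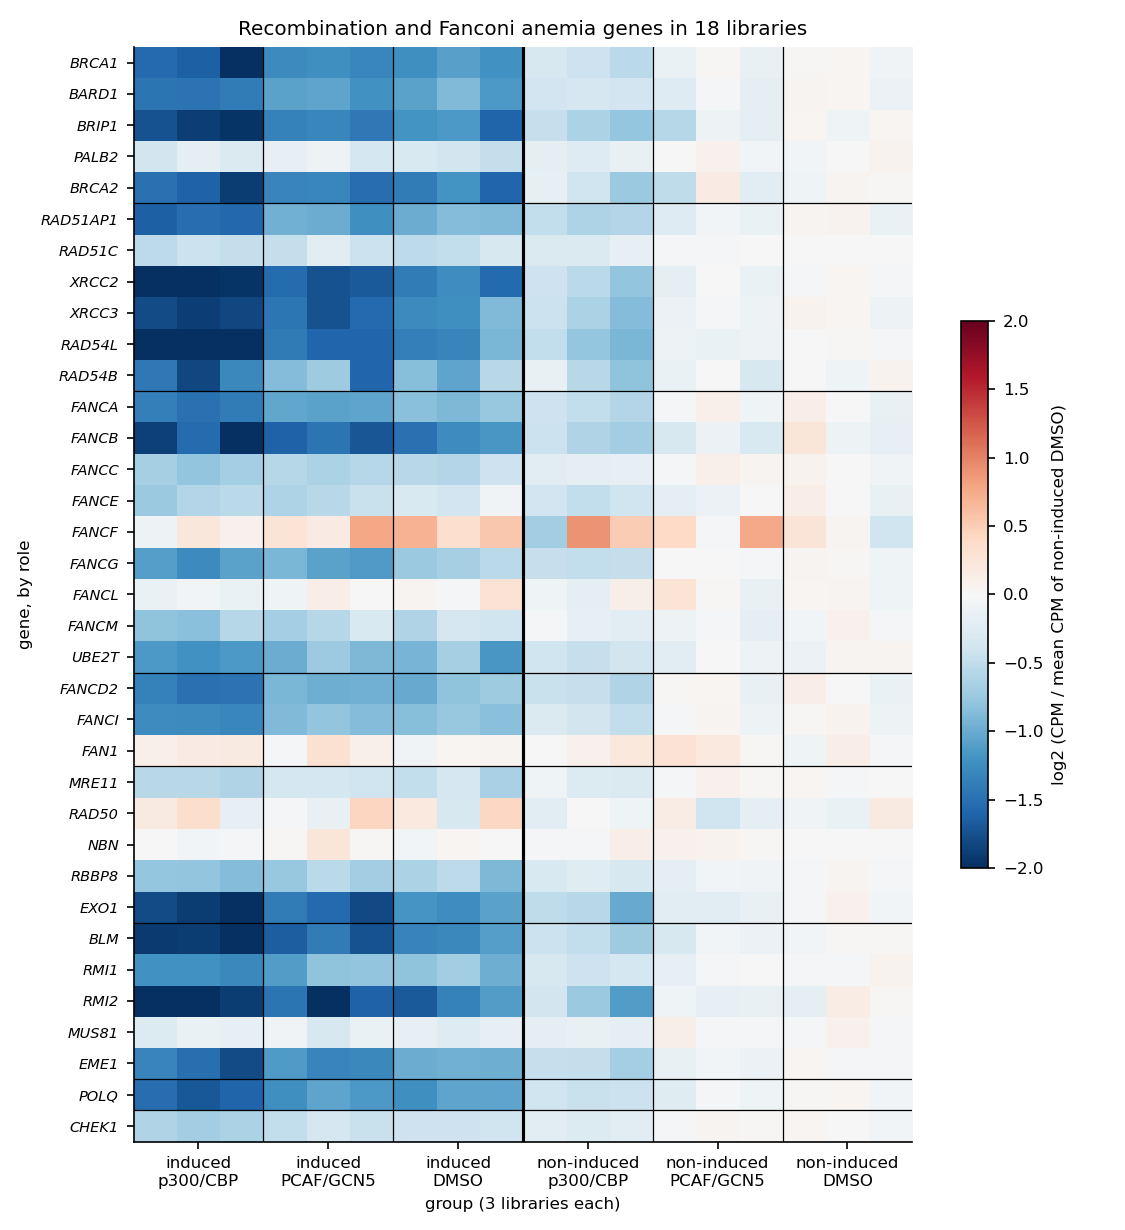
Log2 ratio of the CPM in each of the 18 libraries (columns, 3 per group) to the mean CPM of non-induced DMSO, for the 35 genes (rows, ordered by role, lines between roles). Colours end at -2 and 2. Induced libraries are blue for most genes, while FANCF, FANCL, FAN1, RAD50 and NBN stay pale in most of them.

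The BRCA1-PALB2-BRCA2 axis fell whole, with all 5 genes past the test and a median of -1.21. In the files BRCA1 (ENSG00000012048) lies at chr17:43044295-43170245 on the minus strand and BRCA2 (ENSG00000139618) at chr13:32315086-32400266 on the plus strand, on GRCh38. BRCA1, the ubiquitin ligase subunit that directs breaks to recombination, was at 27.5, 30.3 and 27.8 CPM in induced DMSO libraries, against 65.7, 66.6 and 61.5 CPM in non-induced ones. The groups were far apart, and the log2 fold change was -1.21 ± 0.07 (SE, n = 3 libraries per group, adjusted p = 2.53e-05), which leaves 43.3% of the non-induced level. BRCA2, which acts on resected single-stranded DNA, was at 10.2, 11.7 and 8.91 CPM with induction, against 25.2, 28 and 27.4 CPM without. It fell by 1.41 on the log2 scale (SE 0.11, adjusted p = 8.65e-05). BRIP1, a helicase bound to BRCA1, was at 17.6, 18.2 and 13.3 CPM in induced cells, against 41.5, 37.9 and 41.6 CPM in non-induced cells, a change of -1.33 ± 0.12 (adjusted p = 0.000143). The third induced library was the lowest of its group for both BRCA2 and BRIP1, and for neither gene did any induced library reach a non-induced one. BARD1, the partner of BRCA1, fell by 1.06. PALB2, which bridges BRCA1 and BRCA2, had the smallest change of the axis: 16.1, 15.4 and 14.3 CPM induced, against 19, 19.6 and 20.8 CPM non-induced, or -0.40 ± 0.09 (adjusted p = 0.0205).

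All 6 genes of strand exchange (RAD51AP1, RAD51C, XRCC2, XRCC3, RAD54L and RAD54B) fell, with a median of -1.04. XRCC2, which acts in strand exchange, had the largest change of the 35 genes: 17.6, 19.8 and 15.8 CPM in induced DMSO libraries, against 45.8, 48.1 and 45.8 CPM in non-induced ones (-1.42 ± 0.09, adjusted p = 3.27e-05). RAD54L, a motor protein that works in strand exchange, was at 13.8, 14.3 and 18.9 CPM with induction, against 35.4, 36.2 and 35.1 CPM without (-1.21 ± 0.13, adjusted p = 0.000412). The third induced library was its high one, unlike in BRCA2 and BRIP1 but still lay well below every non-induced one. XRCC3 fell by 1.15, RAD51AP1 by 0.94, RAD54B by 0.82 and RAD51C by 0.47. The exons of XRCC3 share 76.7% of their bases with KLC1 on the opposite strand, and those of RAD54B share 73.8% with FSBP on the same strand; whether counting used the strand is not given in the sources used here, so the values of both genes are uncertain.

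The Fanconi anemia core complex was uneven. With UBE2T, 6 of its 9 genes fell, with a median of -0.55. FANCB, a subunit of the catalytic module, was a gene of low counts: 2.13, 2.5 and 2.67 CPM in induced DMSO libraries, against 7.02, 5.58 and 5.3 CPM in non-induced ones (-1.34 ± 0.18, adjusted p = 0.0014). UBE2T fell by 0.93, FANCA, a scaffold subunit, by 0.86, FANCG by 0.68, FANCC by 0.55 and FANCM, the DNA translocase, by 0.47. FANCL, the ubiquitin ligase of the complex, did not pass: it was at 28.8, 27 and 34.1 CPM in induced cells, against 28.5, 28.8 and 26.2 CPM in non-induced cells, with overlapping groups and a log2 fold change of 0.08 (95% interval -0.17 to 0.32). FANCE was at -0.28 ± 0.12 (adjusted p = 0.158). FANCF was at 0.45 ± 0.25 (adjusted p = 0.288), with 2.18 CPM or less in every library. The substrates of the complex did fall: FANCD2 by 0.86 and FANCI by 0.84, while FAN1, the nuclease that binds ubiquitinated FANCD2, was at -0.02 ± 0.09.

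Of the resection genes, EXO1, the long-range nuclease, was at 21.8, 20.8 and 23.4 CPM in induced DMSO libraries, against 47.9, 52.4 and 47.5 CPM in non-induced ones (-1.19 ± 0.09). RBBP8, the cofactor that starts resection, fell by 0.71 and the nuclease MRE11 by 0.51. The partners of MRE11 did not pass. NBN was at 184.0, 198.0 and 191.5 CPM in induced cells, against 193.2, 191.9 and 190.9 CPM in non-induced ones, a change of -0.03 (95% interval -0.16 to 0.09). RAD50 was at 7.79, 5.44 and 9.03 CPM in induced cells, against 6.49, 6.2 and 7.73 CPM in non-induced ones, but 76.9% of its exonic bases lie in a second annotated gene, AC116366.3, on the same strand, so its counts may miss reads that fall in both. A complex of 3 subunits therefore held 1 gene that fell and 2 that did not pass.

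BLM, the helicase that dissolves double Holliday junctions, was at 15.4, 15.9 and 18.1 CPM in induced DMSO libraries, against 37.4, 39.4 and 39.2 CPM in non-induced ones (-1.26 ± 0.10, adjusted p = 6.06e-05). RMI2, a stabilising subunit of the BLM complex, was at 4.02, 5.04 and 5.94 CPM, against 11.3, 14.2 and 13.0 CPM (-1.39 ± 0.17, adjusted p = 0.000901). In both genes the groups stood clear of each other, and RMI1, the other subunit, fell by 0.84. EME1 fell by 1.0, while MUS81, the nuclease it pairs with, was at -0.22 ± 0.08 (adjusted p = 0.113). Exons of EME1 share 16.4% of their bases with LRRC59 and those of MUS81 share 13.9% with CFL1, genes on the opposite strand with mean levels of 431 and 970 CPM. Exonic bases are also shared with genes on the opposite strand in FANCA (23.6% with ZNF276), RAD54L (19.9% with LRRC41) and FANCL (18.7% with VRK2). POLQ, the polymerase of the alternative end joining that competes with recombination, fell by 1.14, and CHEK1, the checkpoint kinase active at stalled forks, by 0.44.

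Induction was also measured in cells with each compound, in libraries that share none with the DMSO pair or with each other. With the p300/CBP compound 27 genes fell, where 16.2% of 14844 genes did, and with the PCAF/GCN5 compound 28 fell, where 12.5% of 15236 did. Median log2 fold changes were -0.91 and -0.89. The same 27 genes fell in all 3 inductions: PALB2 passed only in DMSO (-0.10 ± 0.09 with the p300/CBP compound, -0.25 ± 0.10 with the PCAF/GCN5 compound) and FANCE only with the PCAF/GCN5 compound (-0.47 ± 0.10). The tests of the difference between induction with either compound and induction in DMSO passed for neither gene. Across the 35 genes the log2 fold change in DMSO had a Pearson r of 0.94 with that under the p300/CBP compound and 0.95 with that under the PCAF/GCN5 compound, against 0.72 and 0.73 over 14632 and 14844 genes tested in both. This r is across genes, which share libraries and are not independent replicates. How many of all called genes were shared by the 3 inductions was not counted. With the p300/CBP compound XRCC2 was at 11.1, 10.5 and 12 CPM in induced cells, against 34.9, 32.1 and 26.9 CPM in non-induced cells. With the PCAF/GCN5 compound it was at 16, 14 and 14.5 CPM in induced cells, against 40.7, 46.9 and 42.3 CPM in non-induced cells. The groups were apart in both. FAN1, FANCF, FANCL, MUS81, NBN and RAD50 passed in none of the 11 comparisons. Under the alternatives, MUS81 alone of these passed, at -0.25 (adjusted p = 0.00607) on induction in DMSO without the third induced library and at -0.26 (adjusted p = 0.00796) without the third library of both DMSO groups.

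**Figure D2:**
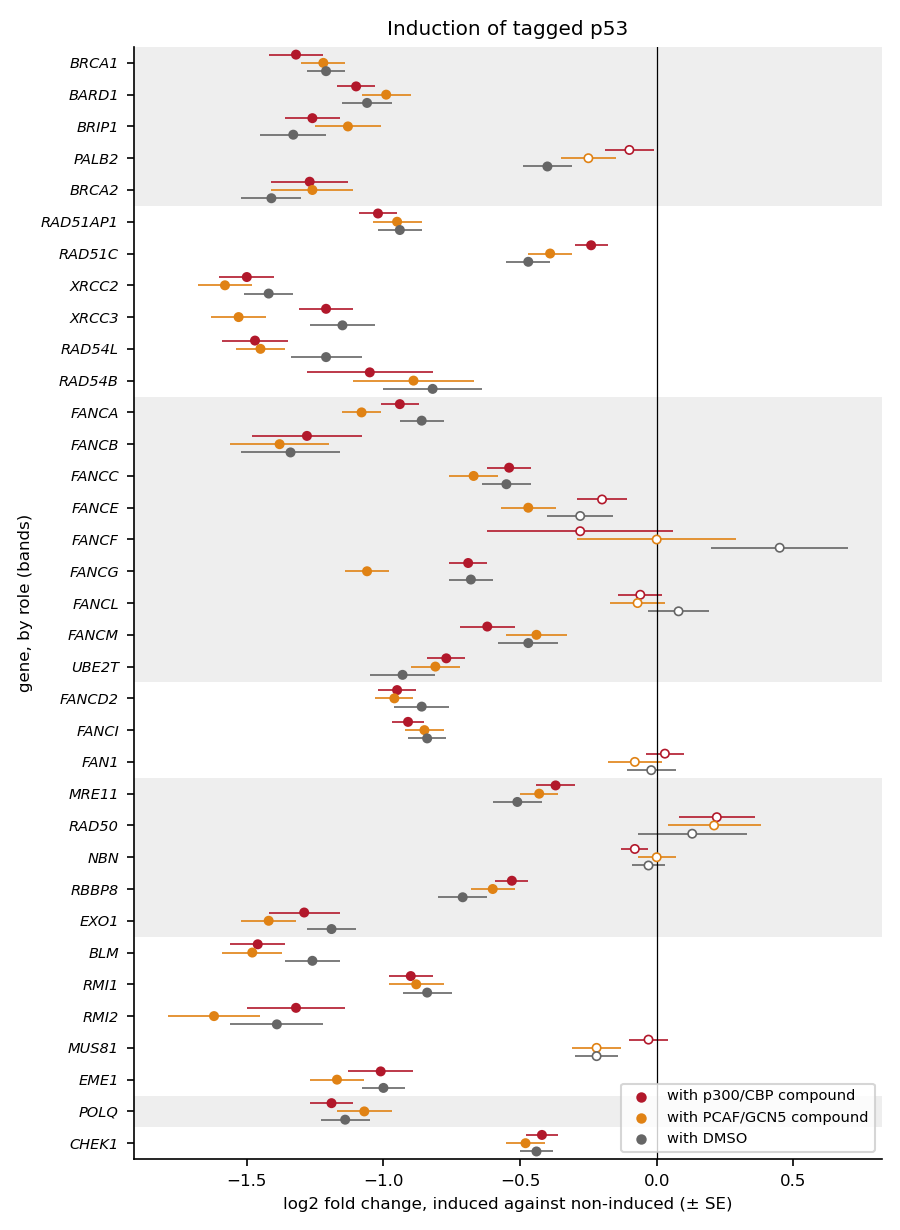
Log2 fold change of induced against non-induced cells for the 35 genes, with the p300/CBP compound (red), the PCAF/GCN5 compound (orange) or DMSO (grey); bars are standard errors, 3 libraries per group, and filled points have an adjusted p below 0.05. Of the 35 genes, 27 are filled in all 3 colours, with XRCC2 at -1.50, -1.58 and -1.42.

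Other repair genes were set beside the 35. Of 51 further genes of recombination and Fanconi anemia, 49 were tested in DMSO and 17 fell, with a median of -0.22 and none higher. Among those that fell were MMS22L, which aids recombination at stalled forks (-1.17 ± 0.11), and FIGNL1 (-1.03 ± 0.14). End joining by DNA-PK and ligase IV had 3 of 14 genes lower (median -0.08), and mismatch repair had 2 of 7 (median -0.19). In nucleotide excision repair 2 of 19 genes passed, both higher: the damage sensors and known p53 targets DDB2 (1.62 ± 0.10) and XPC (1.07 ± 0.07). Base excision repair had 5 of 18 lower and PARP1 higher (0.45 ± 0.05). Whether these shares differ from that of the 35 genes was not tested.

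**Figure D3:**
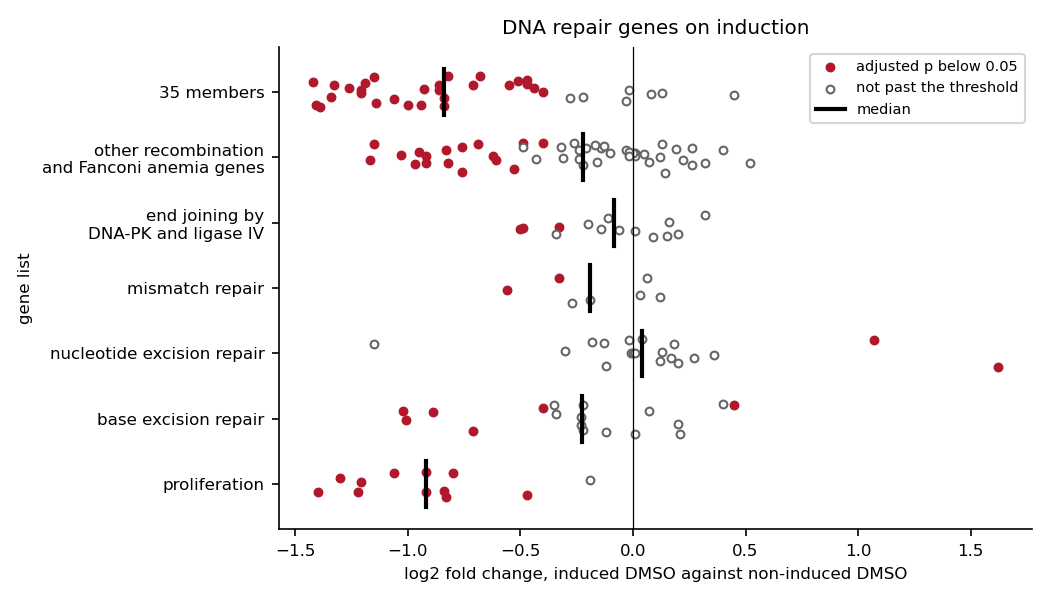
Log2 fold change of induced DMSO against non-induced DMSO for each tested gene (points, red where the adjusted p is below 0.05) in the set of 35, the 5 other repair lists and the proliferation list; black bars are medians. The medians of the 35 genes (-0.84) and of the proliferation genes (-0.92) lie to the left of those of the other lists.

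Proliferation markers moved with the set. Of 12 such genes (MKI67, TOP2A, CCNA2, CCNB1, CDK1, PCNA and MCM2 to MCM7), 11 fell on induction in DMSO, with a median of -0.92, and PCNA did not pass. Their summed level was 1993 to 2094 CPM in induced DMSO libraries, against 3801 to 3901 CPM in non-induced ones. Their part in the falls of the 35 genes was not tested; in RNA of whole cultures, fewer cells in S and G2 phase and less RNA of a gene per cell cannot be told apart.

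The p300/CBP compound lowered the set further, in both states. In induced cells 16 of the 35 genes fell against DMSO and none rose, where 3.04% of 15019 genes fell and 2.94% rose. The median was -0.46, against 0.00 for all genes tested. In non-induced cells 25 fell and none rose, where 6.46% of 14943 genes fell and 3.43% rose, with a median of -0.43. The 16 genes called in induced cells were all among the 25, which is 100% of the first list and 64% of the second. The comparisons share no library, but the overlap among all called genes was not counted. Between the states the log2 fold changes had a Pearson r of 0.78 across the 35 genes, against 0.33 over 14617 genes. BRCA2, CHEK1, FANCB, FANCE, MRE11, RAD51C, RBBP8, RMI2 and UBE2T passed in non-induced cells only, and the test of the difference between states called none of them.

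RAD54L changed most with the p300/CBP compound. It was at 7.54, 7.38 and 8.77 CPM in induced cells with the compound, against 13.8, 14.3 and 18.9 CPM with DMSO (-1.0 ± 0.15, adjusted p = 0.00594). In non-induced cells it was at 25.2, 20.7 and 18.8 CPM with the compound, against 35.4, 36.2 and 35.1 CPM with DMSO (-0.73 ± 0.09). The groups were apart in each state. XRCC2 was at 11.1, 10.5 and 12 CPM with the compound in induced cells, against 17.6, 19.8 and 15.8 CPM with DMSO (-0.67 ± 0.11, adjusted p = 0.00928), and changed by -0.59 ± 0.09 in non-induced cells. The compound libraries of XRCC3 were at 14.3, 13.4 and 14 CPM, against 20.4, 21.1 and 26.7 CPM with DMSO (-0.72 ± 0.12, adjusted p = 0.0112). Here too no library of one group reached the other, and the high DMSO value came from the third library. RAD51AP1, which stimulates strand pairing, was at 23.1, 25 and 24.3 CPM with the compound, against 36.3, 39.5 and 39.0 CPM with DMSO (-0.68 ± 0.08, adjusted p = 0.00202).

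EXO1 was at 14.3, 13.2 and 10.9 CPM with the p300/CBP compound in induced cells, against 21.8, 20.8 and 23.4 CPM with DMSO (-0.79 ± 0.12, adjusted p = 0.00588). BLM was at 10.3, 10.4 and 8.73 CPM with the compound, against 15.4, 15.9 and 18.1 CPM (-0.76 ± 0.12, adjusted p = 0.00755). Neither gene had overlapping groups. FANCD2, the ubiquitinated partner of FANCI, was at 30.2, 27.5 and 27.7 CPM, against 38.3, 44.2 and 47.0 CPM (-0.61 ± 0.10, adjusted p = 0.00855). FANCA was at 37.6, 34.5 and 36.6 CPM, against 54.5, 52.1 and 57.0 CPM (-0.60 ± 0.08, adjusted p = 0.00244). BRCA1 also fell, to 22, 20.9 and 16 CPM with the compound, against 27.5, 30.3 and 27.8 CPM with DMSO (-0.55 ± 0.13, adjusted p = 0.0364).

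By role, the falls in induced cells took 3 of the 5 genes of the BRCA axis, 4 of the 6 strand exchange genes, 2 of the 9 core complex genes with UBE2T, both FANCI and FANCD2, 1 of the 5 resection genes, 3 of the 5 genes for joined molecules and POLQ. In non-induced cells they took 4, 5, 5, 2 (FANCI and FANCD2), 3 and 4 genes of these groups, POLQ and CHEK1. PALB2, FAN1, NBN and RAD50 were among the 10 genes that passed in neither state. The count in induced cells depended on single libraries: it was 7, 6 and 6 without p300/CBP library 1, 2 or 3 in turn, 10 without the second DMSO library and 22 without the third, the one that stood apart. Of all genes tested, 0.602% to 0.827% fell without 1 of the p300/CBP libraries, 2.41% without the second DMSO library and 10.9% without the third. The background thus moved as well. EXO1, FANCA, FANCI, RAD51AP1 and RAD54L passed whichever 1 library was left out. In non-induced cells 19 to 26 genes passed with 1 library left out, where 2.83% to 10% of all genes tested fell.

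**Figure D4:**
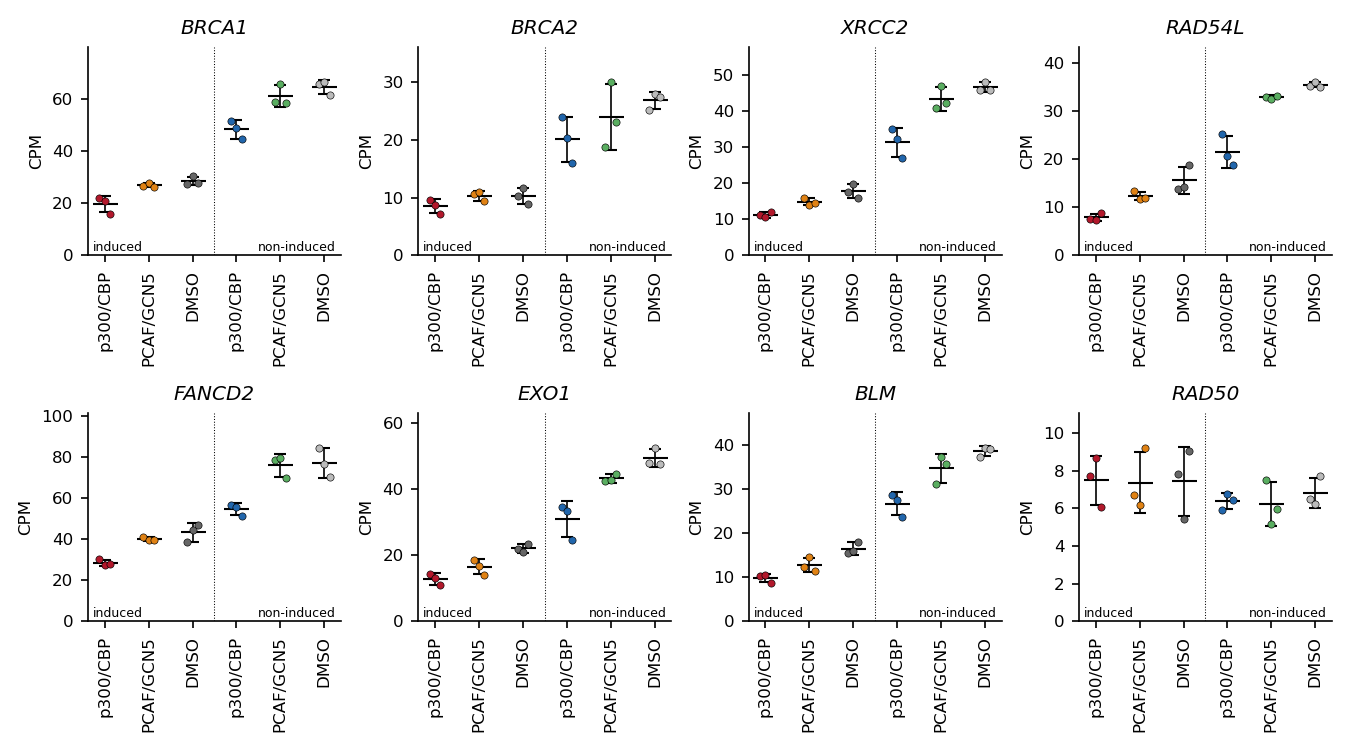
CPM in each library (points) with the mean and SD of each group of 3 (black) for BRCA1, BRCA2, XRCC2, RAD54L, FANCD2, EXO1, BLM and RAD50; induced groups are left of the dotted line. RAD54L is at 7.38 to 8.77 CPM in induced cells with the p300/CBP compound and at 35.1 to 36.2 CPM in non-induced DMSO, while the groups of RAD50 overlap.

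Proliferation markers were lower with the p300/CBP compound as well. In induced cells 10 of the 12 fell and PCNA rose (0.33 ± 0.08), and in non-induced cells all 12 fell. Their summed level was 1423 to 1494 CPM with the compound, against 1993 to 2094 CPM with DMSO, in induced cells, and 2369 to 2920 CPM against 3801 to 3901 CPM in non-induced cells. CDKN1A was 2.75 ± 0.08 higher (log2) with the compound in induced cells and 0.20 ± 0.06 higher in non-induced cells. The part of either in the falls of the 35 genes was not tested. Of the 49 further recombination and Fanconi anemia genes, 12 fell in induced cells, and RAD52, which anneals single strands, rose by 0.39 ± 0.09. In non-induced cells 16 fell, among them FIGNL1 (-0.53 ± 0.12) and MMS22L (-0.48 ± 0.06), and ABRAXAS1, a subunit of a BRCA1 complex, rose by 0.28 ± 0.08.

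Whether the p300/CBP effect differed between states was tested directly. The difference of the p300/CBP effect between induced and non-induced cells passed for none of the 35 genes, where 1.28% of 15618 genes passed. DESeq2 called none of the 35 either, where it called 2.11% of 13490 genes. An unadjusted p below 0.05 was found for 2 of the 35 and for 1634 of the 15618. Without the third induced DMSO library none of the 35 passed and 2.73% of 15843 genes did. Its median over the 35 genes was -0.03. For RAD54L the difference was -0.25 (95% interval -0.66 to 0.15) and for BRCA1 -0.10 (-0.42 to 0.21), so that a change of either sign is within the interval.

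With the PCAF/GCN5 compound none of the 35 genes passed against DMSO in edgeR. In induced cells 9 of the 35 had an unadjusted p below 0.05, as did 1530 of all 15078 genes tested. None of the 35 passed in DESeq2, where 0.601% of 17650 genes did. In edgeR 0.345% of the 15078 genes passed in either direction. Without the third induced DMSO library none of the 35 passed either, where 0.743% of 15352 genes did. With all libraries the median of the 35 genes was -0.12, against -0.01 for all genes tested. Of the 35 changes 30 were below 0, as were 7747 of the 15078. The largest of the 35 were XRCC3 (-0.49, 95% interval -0.81 to -0.18), EXO1 (-0.45, -0.74 to -0.17) and FANCG (-0.43, -0.67 to -0.19). XRCC3 and FANCG passed when low genes were kept or all 6 groups were fitted at once. In these fits 1.76% and 2.2% of all genes tested passed in either direction. In the authors' deposited table of this comparison, whose test gave other calls than the one made here, 9 of the genes have an adjusted p below 0.05: BLM, EME1, EXO1, FANCA, FANCE, FANCG, RAD54L, XRCC2 and XRCC3. The authors' deposited table for the p300/CBP compound in induced cells has 22. The share of all genes below 0.05 by the authors' test was not counted, so the 9 and the 22 have no background here. In non-induced cells none of the 35 genes passed with the PCAF/GCN5 compound by edgeR or by DESeq2. Of all genes tested, 0.0199% of 15100 passed in edgeR and 0.0165% of 30235 in DESeq2. An unadjusted p below 0.05 was found for 4 of the 35 and for 959 of the 15100. The authors' deposited table gives an adjusted p for 12 of the 35 genes in that comparison, none of them below 0.05, and none for the other 23. For BRCA1 the interval there was -0.24 to 0.04. The difference of the PCAF/GCN5 effect between states passed for none of the 35 by either tool. Of all genes tested, 0.0696% of 15813 passed in edgeR and 0.184% of 24405 in DESeq2. An unadjusted p below 0.05 was found for 2 of the 35 and for 1148 of the 15813. Without the third induced DMSO library none of the 35 passed, where 0.148% of 16182 genes did.

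**Figure D5:**
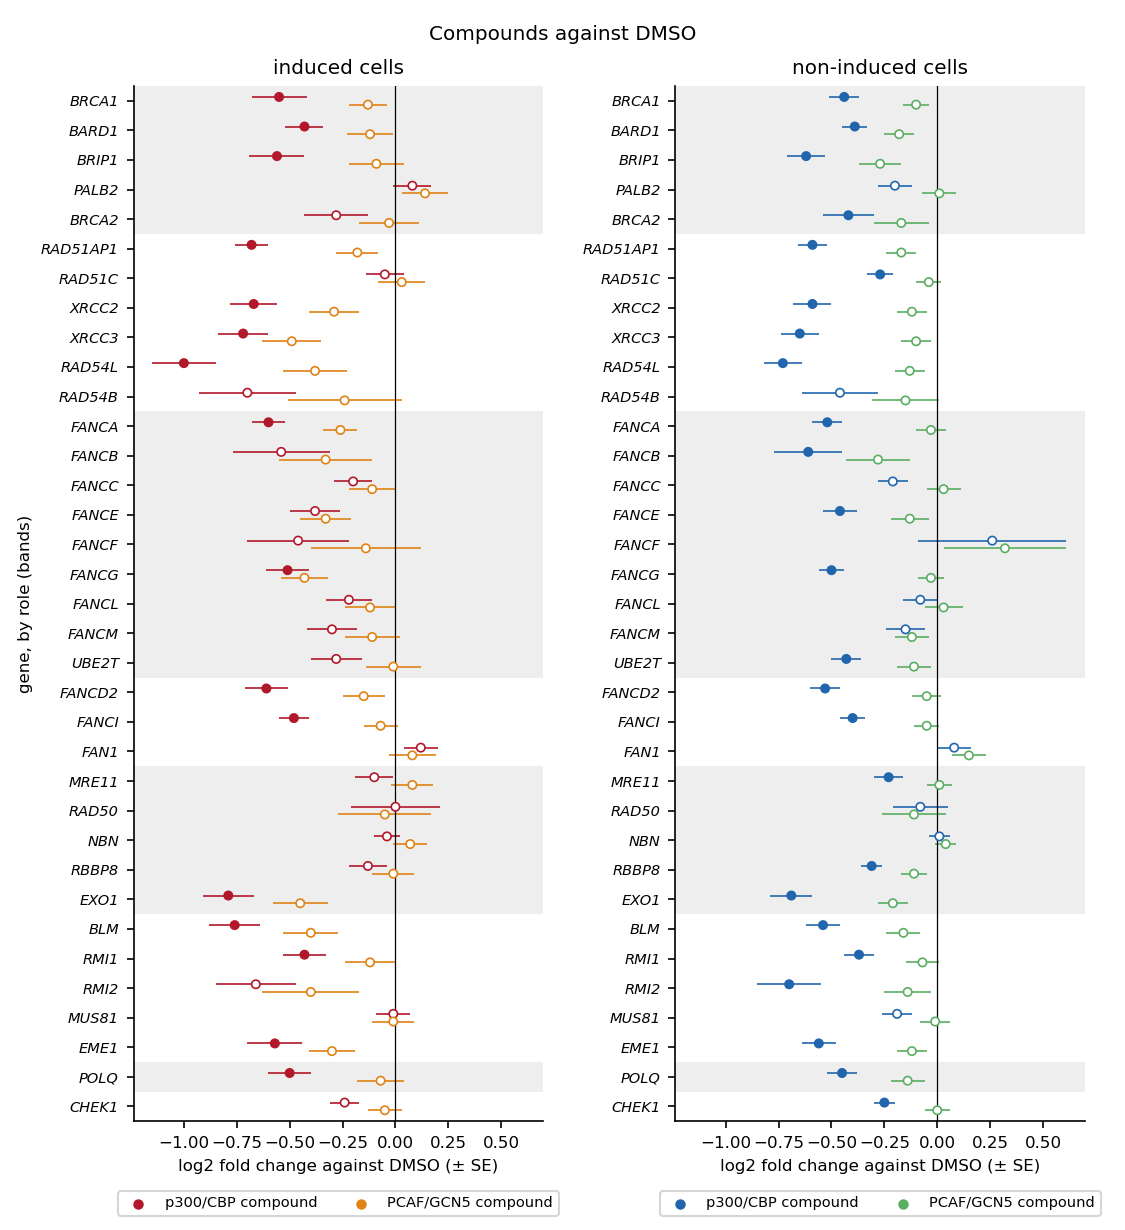
Log2 fold change against DMSO of the p300/CBP compound (red, blue) and the PCAF/GCN5 compound (orange, green) in induced cells (left) and non-induced cells (right); bars are standard errors, 3 libraries per group, and filled points have an adjusted p below 0.05. Of the 35 genes, 16 are filled for the p300/CBP compound in induced cells and 25 in non-induced cells, and none for the PCAF/GCN5 compound.

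Set against each other, the compounds differed for part of the set, and each gene that passed was lower with the p300/CBP compound. In induced cells 10 genes were lower with it, where 2.25% of 14983 genes were: BRCA1, BARD1, BRIP1, RAD51AP1, XRCC2, RAD54L, FANCA, FANCD2, FANCI and POLQ. FANCD2 was at 30.2, 27.5 and 27.7 CPM with the p300/CBP compound, against 40.9, 39.3 and 39.5 CPM with the PCAF/GCN5 compound (-0.47 ± 0.07, 95% interval -0.62 to -0.32). RAD54L differed by -0.62 ± 0.12. For FANCG the values were 24.6, 21.7 and 25 CPM with the p300/CBP compound and 27.8, 25 and 24.0 CPM with the PCAF/GCN5 compound, and the difference was -0.09 (95% interval -0.28 to 0.10). The count was 4 without the second p300/CBP library and 5 without the third. Of all genes tested, 0.83% and 0.783% were lower in these fits, so that the background moved as well.

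In non-induced cells 9 genes were lower with the p300/CBP compound than with the PCAF/GCN5 compound, where 0.932% of 15131 genes were: RAD51AP1, XRCC2, XRCC3, RAD54L, FANCA, FANCG, FANCD2, FANCI and EME1. Of these, 6 were also among the 10 of induced cells, which is 66.7% of the 9 and 60% of the 10. The overlap among all called genes was not counted. Between the states the log2 fold changes had a Pearson r of 0.61 across the 35 genes, against 0.21 over 14662 genes. RAD54L was at 25.2, 20.7 and 18.8 CPM with the p300/CBP compound, against 33, 32.5 and 33.3 CPM with the PCAF/GCN5 compound (-0.60 ± 0.10, 95% interval -0.83 to -0.38). This count rested on single libraries. It was 0 without the second p300/CBP or the second PCAF/GCN5 library and 3 without the third of either. It was 17 without the first PCAF/GCN5 library and 15 in DESeq2. Of all genes tested, 0.00646% and 0.00648% were lower without the second p300/CBP or PCAF/GCN5 library, and 0.117% and 0.29% without the third. The share was 1.54% without the first PCAF/GCN5 library and 3.04% in DESeq2, so that the background moved as well.

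By group, the mean CPM was lowest in induced cells with the p300/CBP compound for 30 of the 35 genes and highest in non-induced DMSO for 25. The order of groups was not counted over all genes, so these 2 counts have no background beside them. RAD51AP1, XRCC2, RAD54L, FANCA, FANCD2 and FANCI passed in all 7 comparisons that called any of the set. Levels were also taken per kilobase of all annotated exonic bases of a gene, which can exceed the length of a transcript. By this measure, levels in non-induced DMSO ranged from 0.395 ± 0.089 CPM per kb for FANCF to 31.2 ± 0.187 for NBN (mean ± SD, n = 3). UBE2T (28.7 ± 1.86) and RAD51AP1 (28.1 ± 2.20) came next and lay within each other's spread. BRCA1 was in the middle at 6.94 ± 0.290 CPM per kb, against 2.10 ± 0.115 for BRCA2. In induced DMSO the same measure was 3.07 ± 0.166 for BRCA1 and 0.802 ± 0.111 for BRCA2, and 31.1 ± 1.14 for NBN.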

How the data were processed

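The members and lists were chosen with earlier results of these data known. Total RNA libraries were made with a directional kit, per the labels' protocols, and the submitters' processing notes name StringTie and DESeq2 without versions; the aligner, build, annotation, counting program and use of strand are not given in the sources used here. The 4 deposited tables each compare a compound with DMSO in one state, and hold raw counts per gene as deposited by the authors. Their log2 fold changes and adjusted p-values, deposited by the authors, are cited only as the authors' deposited table; in the tables of induced cells they run as DMSO minus compound, and the sign was turned. In 1 table the line of ANK2 is broken, so its 3 DMSO count columns were not used (they were read from the other non-induced table) and ANK2 was left out.

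CPM are counts per 1000000 of the library total. The test was the 2-sided quasi-likelihood F test of edgeR 4.0.16 (R 4.3.3), after filterByExpr and TMM scaling, with only the groups of a comparison in its fit. Benjamini-Hochberg adjustment ran over all genes tested, and genes were called at an adjusted p below 0.05. The standard error is the log2 fold change over the square root of F. There were 9 comparisons of 2 groups and 2 of the difference between states, and the median change of all tested genes was within 0.01 of 0 in each. Alternatives were RLE scaling, DESeq2 1.42.0, no filter on low counts, all 6 groups in 1 fit, a replicate block, and each library left out. Named in full were the 8 genes with the largest called change on induction in DMSO and the 8 with the largest called fall under the p300/CBP compound in induced cells. FANCL, NBN, RAD50 and others that did not pass are named as members of the set. For each other list the counts, the median and a few called genes are given. Gene positions and lengths are those of the files; all 35 overlap the same gene in GENCODE release 29 (GRCh38), 25 with the same start and end. Of the 35 genes 4 had no promoter entry. A few genes are not reported here.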

Additional observations from a re-analysis of the deposited data

How the results depend on the processing

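No call of the 35 genes changed sign, and none of the 35 was called higher, under any alternative in any comparison. RLE scaling kept all 143 calls, as did dropping the filter, DESeq2 kept 141, the fit of all 6 groups 139 and the replicate block 130. Leaving out the third library of both DMSO groups (added after seeing the data) kept the 28 calls on induction in DMSO and gave 30. Of all genes tested, 16.4% fell in that fit. With 1 library left out, the count of the 35 genes that passed was 25 to 30 for induction in DMSO (3.53% to 17.2% of all genes tested fell). For p300/CBP against DMSO it was 6 to 22 in induced cells (0.602% to 10.9%) and 19 to 26 in non-induced cells (2.83% to 10%). For p300/CBP against PCAF/GCN5 it was 4 to 11 in induced cells (0.783% to 3.76%) and 0 to 17 in non-induced cells (0.00646% to 1.77%). The background thus moved with the counts. A group then holds fewer libraries, and the cause was otherwise not tested. For PCAF/GCN5 against DMSO in induced cells the count was 2 with no filter and 2 with all 6 groups in 1 fit, in place of 0. Of all genes tested, 1.76% and 2.2% then passed in either direction, in place of 0.345%. For p300/CBP against PCAF/GCN5 in non-induced cells the count was 15 in DESeq2 and 17 with no filter, in place of 9. Of all genes tested, 3.04% and 1.59% were then lower, in place of 0.932%. No pairing of the libraries by replicate number was seen. Deviations from the group means of same-numbered libraries correlated between -0.16 and 0.19, and in none of the 9 comparisons were all 3 over 0.1. With so few libraries per group, a weak pairing could be missed. With the replicate block the count was 10, in place of 16, for p300/CBP against DMSO in induced cells. Of all genes tested, 1.61% then fell, in place of 3.04%. For the compounds against each other in non-induced cells it was 5, in place of 9. There 0.297% of all genes tested were lower, in place of 0.932%. A count of 0 allows up to 3 counts, or 0.103 to 0.331 CPM by library (counting error only), and the low counts of FANCF, RAD54B, FANCB and RAD50 limit what could be seen in them.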
